A study of Rattus norvegicus with 12 samples.

Results

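Chemokines are small signalling proteins that guide the movement of cells, and 10 of their genes are described here in cultures of rat neural stem cells: Cxcl1, Cxcl2, Cxcl12, Cxcl13, Cxcl16, Cx3cl1, Ccl2, Ccl3, Ccl7 and Ccl20. Every probe set of the expression array whose single gene symbol was one of these names was taken. This gave 12 probe sets, 3 for Cxcl12 and 1 for each of the other genes, of 31042 on the array after controls were left out. All 12 were among the 20834 probe sets tested, those above the array's own 40th percentile on at least 3 of the 12 arrays. The donors were Sprague Dawley rats of postnatal day 3 to 5, and both brain and spinal cord were cultured. Neural stem cells (NSCs) divide and form the neurons and glia of the nervous system, and cultures of each tissue were profiled while proliferative and after they had differentiated. The groups, with 3 arrays each, were proliferative brain NSCs (titled BNSC), differentiated brain NSCs (BNSCfenhua), proliferative spinal cord NSCs (SNSC) and differentiated spinal cord NSCs (SNSCfenhua). No allele, drug or added agent is named for any group, and the way and length of differentiation are not given in the sources used here. Whether replicate arrays stand for separate animals or cultures is not stated either, so each p-value reflects array-to-array spread within groups, and that spread may be technical.

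By the spacing of their conserved cysteines, chemokines fall into CXC, CC and CX3C families, and they act on G protein-coupled receptors of the responding cell. Cxcl1 and Cxcl2 attract neutrophils through Cxcr2. Cxcl12 holds and guides stem cells and neural precursors through Cxcr4, while Ackr3 takes Cxcl12 up and degrades it. Cxcl13 attracts B cells through Cxcr5. Cxcl16 and Cx3cl1 are made as membrane proteins whose chemokine part can be cut off by Adam10 and Adam17. Ccl2 and Ccl7 recruit monocytes through Ccr2, Ccl3 is a macrophage product that binds Ccr1, and Ccl20 is the ligand of Ccr6. In the nervous system astrocytes and microglia can make several of these ligands during inflammation, when receptors for TNF and IL-1 activate the transcription factor NF-kappaB.

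Promoter sequence was matched by gene symbol in RefSeq (build GRCr8) for 8 of the 10 genes, and the 250 bases before the start site were searched on both strands. The motifs were the kappaB consensus bound by NF-kappaB, the AP-1 motif TGANTCA and the TATA motif TATAAA, which do not overlap each other in these windows. A kappaB match was found for Cxcl1, with its first base at position -84 from the start site, for Cxcl2 at -74 and, on the opposite strand, for Ccl20 at -89. Cxcl1 and Cxcl2 each held another match 1 base further on, which overlaps the first. It lay at -83 on the opposite strand for Cxcl1 and at -73 on the same strand for Cxcl2. The kappaB consensus matched in 3.54% of 33469 rat promoters of the same length. Ccl7 held an AP-1 match at -73, a motif found in 6.34% of promoters. TATA matches, found in 12.9% of promoters, lay at -33 for Cxcl13, -34 for Ccl7 and -78 for Cx3cl1. No match to any of the 3 motifs was found in the windows of Cxcl12 and Cxcl16, which says only that these letters are not in the window. The 150 bases before the start are shown for Cxcl1, Cxcl2 and Ccl20 because they hold the kappaB match, and for Cxcl12 and Cxcl13 because their signals differed most between groups. Capitals mark the matches, and all are written 5′ to 3′ on the gene's strand. The Cxcl1 stretch is chr14:17479322-17479471 (minus strand), that of Cxcl2 chr14:17467256-17467405 (minus), that of Ccl20 chr9:91837009-91837158 (plus), that of Cxcl12 chr4:152060631-152060780 (plus) and that of Cxcl13 chr14:13917921-13918070 (minus).
Cxcl1: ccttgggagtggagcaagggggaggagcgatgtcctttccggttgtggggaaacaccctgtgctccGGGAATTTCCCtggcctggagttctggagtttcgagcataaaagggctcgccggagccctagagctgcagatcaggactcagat
Cxcl2: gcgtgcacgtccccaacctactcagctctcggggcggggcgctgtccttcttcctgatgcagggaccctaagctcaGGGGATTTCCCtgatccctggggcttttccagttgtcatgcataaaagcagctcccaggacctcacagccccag
Ccl20: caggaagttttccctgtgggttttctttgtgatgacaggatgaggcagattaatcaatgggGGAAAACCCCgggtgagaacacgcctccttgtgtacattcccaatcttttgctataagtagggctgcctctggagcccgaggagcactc
Cxcl12: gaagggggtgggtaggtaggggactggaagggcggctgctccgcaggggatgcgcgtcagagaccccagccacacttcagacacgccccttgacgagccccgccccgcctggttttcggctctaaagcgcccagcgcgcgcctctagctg
Cxcl13: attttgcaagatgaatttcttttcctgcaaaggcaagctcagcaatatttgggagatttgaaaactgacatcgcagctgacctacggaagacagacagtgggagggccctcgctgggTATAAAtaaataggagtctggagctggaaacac

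Signals are log2 values scaled by the MAS5 algorithm, and levels of different probe sets cannot be set against each other. A group is called dim for a probe set where all 3 arrays lay under their own 40th percentile, which was between 5.91 and 6.41. A fold against a dim group is written as "at least", and none is given where both groups were dim. The first array of the proliferative spinal cord group stood apart: it correlated with the other arrays of its group at r = 0.940 and 0.946, against 0.972 between those arrays. On it 9 of the 12 chemokine probe sets had their lowest value of the group, against 37.1% of all tested probe sets. Only 2, those of Ccl3 and Cx3cl1, had their highest value there, against 41.7% of all tested. In proliferative brain, the third array was highest for 9 of the 12, against 33.2% of all tested probe sets. Of 10 stem and progenitor markers, 8 were measured and only Hes5 was dim, in 3 of the groups. Their summed linear signal was 51650 to 61624 in proliferative and 63509 to 73981 in differentiated brain. In spinal cord it was 46235 to 46333 and 41740 to 43516. Differentiated spinal cord against brain called 0 higher and 6 lower (18.5% and 22.9% of all tested). Proliferative spinal cord against brain gave 1 and 4 (19.4% and 18.5%). Spinal cord differentiation called 1 and 5 (18.3% and 22.0%), and brain differentiation 4 and 1 (23.7% and 23.1%). The summed linear signal of 14 fibroblast, meningeal and mural markers was 1303 to 2607 in proliferative brain, 2375 to 2848 in differentiated brain, 24934 to 49107 in proliferative spinal cord and 101575 to 116526 in differentiated spinal cord. That of 20 microglial and macrophage markers was 1004 to 1565, 2561 to 2991, 9061 to 15480 and 6900 to 7504 in the same order, with Cx3cr1, Itgam, Trem2, P2ry12 and Cd163 dim in every group. The sums of 9 astrocyte markers were 28089 to 35393, 96789 to 103590, 23043 to 40811 and 46774 to 56563, and those of 9 oligodendrocyte lineage markers 9456 to 11666, 50818 to 60016, 55259 to 59611 and 48963 to 57144. The stem and progenitor, microglial, astrocyte and oligodendrocyte sums were thus higher on all differentiated than on all proliferative brain arrays. Each list's sums were without overlap in at least 1 of the comparisons made here, and their part in the chemokine results was not tested. In bulk RNA, fewer cells of a type and less RNA per cell cannot be told apart.

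In differentiated cultures, chemokine signals were higher in spinal cord than in brain for 9 of the 10 genes, by 2.17-fold for Ccl2 to 43.2-fold for one probe set of Cxcl12, and lower for none. Of the 12 probe sets 11 were called at an adjusted p under 0.05, where 41.4% of all tested probe sets were, and all 11 were higher, where 18.5% were, and the median difference was 2.29 on the log2 scale against -0.06 over all tested. Ccl7 was the exception, at 0.68 (adjusted p = 0.199), and it passed without the first proliferative spinal cord array (adjusted p = 0.0112). All 12 had spinal cord and brain arrays that did not overlap, which held for 57.2% of all tested probe sets. The genes were chosen with earlier results of these data known, and Cxcl12 enters with several probe sets, so these counts are descriptions.

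In proliferative cultures chemokine probe sets were called between the tissues about as often as all tested probe sets, and the count changed with the processing. Signals of Cxcl13, Ccl3 and Ccl20 were higher in spinal cord and that of Cxcl1 was lower, so that 4 of 12 probe sets were called, against 37.8% of all tested. Of these 3 were higher, against 19.4% of all tested, and 1 lower, against 18.5%. The median difference was -0.12 on the log2 scale, with -0.02 over all tested. With each array centred on its median, 3 were called higher and 5 lower, namely Cxcl1, Cxcl2, Ccl2, Ccl7 and 1 probe set of Cxcl12, and over all tested probe sets the split moved from 4033 higher and 3844 lower to 2884 and 6214. Without the first proliferative spinal cord array 5 were called higher and 1 lower. Only 3 of the 12 had groups that did not overlap, while 45.5% of all tested did.

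Differentiation of brain cultures split the set. Cxcl12, Cxcl13, Ccl3 and Ccl20 were called higher and Cxcl1, Cxcl2, Cxcl16, Cx3cl1 and Ccl2 lower, which made 11 of 12 probe sets called (46.9% of all tested), 6 of them higher (23.7%) and 5 lower (23.1%), with a median change of -0.08. Over all tested probe sets, centring each array on its median moved the split from 4942 higher and 4821 lower to 3760 and 6078, while the chemokines had 5 in each direction. Differentiation of spinal cord cultures called 8 of 12 probe sets (40.3% of all tested), 7 higher (18.3%) and 1 lower (22.0%), with a median of 1.19 against -0.05 over all tested. The genes that rose were Cxcl1, Cxcl12, Cx3cl1, Ccl2 and Ccl20, and the one that fell was Cxcl2. With median centring these counts were 6 and 0. The states did not overlap for all 12 probe sets in brain (58.3% of all tested) and for 9 in spinal cord (50.3%).

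**Figure D1:**
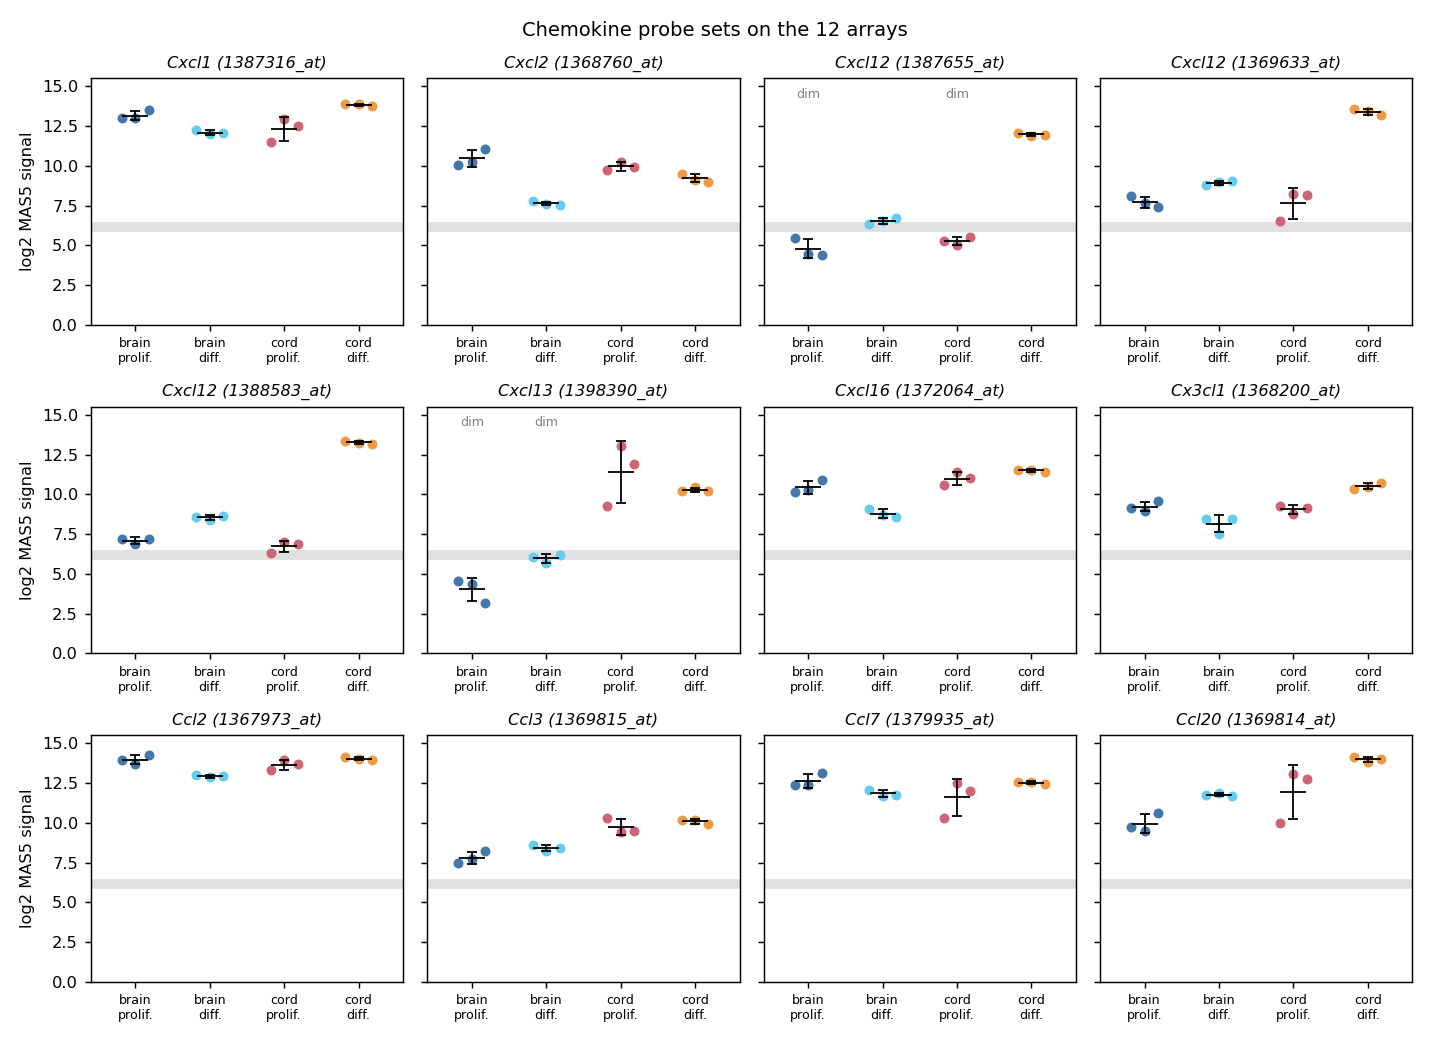
Log2 MAS5 signal of the 12 chemokine probe sets on the 12 arrays (points, replicates 1 to 3 from left to right), with the mean and SD of each group of 3; the grey band spans the arrays' 40th percentiles, 5.91 to 6.41, and dim marks a group whose arrays all lie under their own. All 3 Cxcl12 probe sets stand at 11.91 or more in differentiated spinal cord and at 9.03 or less elsewhere, and Cxcl13 is dim in both brain groups.

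**Figure D2:**
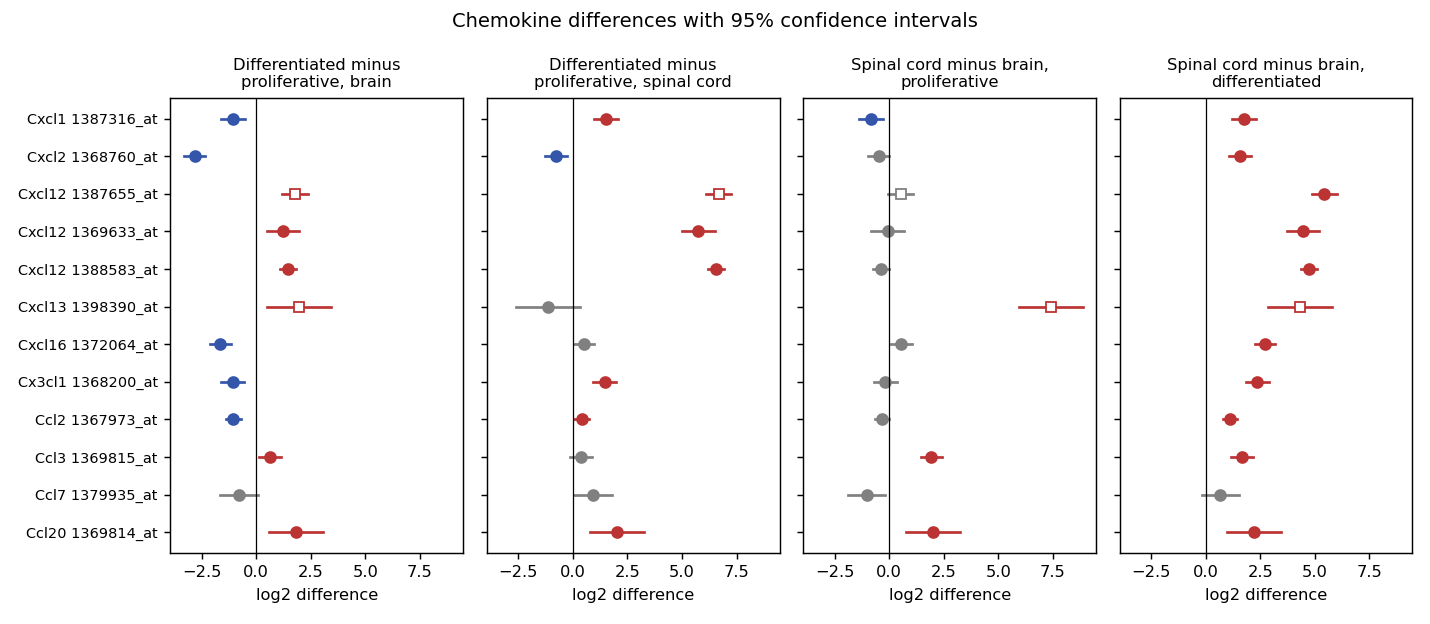
Log2 differences between groups for each chemokine probe set with 95% confidence intervals, in the 4 comparisons; red and blue mark differences called higher and lower, grey those not called, and open squares a comparison in which at least 1 group was dim. In differentiated cultures every point lies to the right of 0.

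Cxcl1 and Cxcl2, the neutrophil attractants, lie next to each other on chromosome 14 with Cxcl1 following Cxcl2 in the RefSeq gene order. Cxcl1 read 13.002, 12.998 and 13.49 on the proliferative brain arrays, 12.25, 11.999 and 12.04 on the differentiated brain arrays, 11.49, 12.95 and 12.53 on the proliferative spinal cord arrays and 13.89, 13.89 and 13.78 on the differentiated spinal cord arrays. Differentiated spinal cord was thus above every other array, and the lowest group, differentiated brain, overlapped with proliferative spinal cord. Cxcl1 fell 2.09-fold with brain differentiation (log2 change -1.06, SE 0.26, adjusted p = 0.00454). In spinal cord it rose 2.88-fold (log2 change 1.53, SE 0.26, adjusted p = 0.000417). Between tissues it was 3.37-fold higher in differentiated spinal cord (adjusted p = 0.000114), while in proliferative cultures it was 1.79-fold lower in spinal cord (adjusted p = 0.0223). The latter call was lost without the third proliferative brain array (-0.68, adjusted p = 0.0898), with only both groups in the fit (0.0813) and without the variance trend (0.0545).

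Cxcl2 had another pattern. It read 10.08, 10.24 and 11.09 in proliferative brain, 7.76, 7.60 and 7.55 in differentiated brain, 9.71, 10.27 and 9.96 in proliferative spinal cord and 9.49, 9.14 and 9.01 in differentiated spinal cord. The differentiated brain arrays were the lowest, with a gap to all others. Cxcl2 fell 7.11-fold in brain (log2 change -2.83, SE 0.23, adjusted p = 4.85e-07), the largest fall among the 12 probe sets. In spinal cord it fell by 0.77 on the log2 scale (1.70-fold, adjusted p = 0.0166), the only chemokine of the 10 that was called lower there. That call was lost without the second proliferative spinal cord array (-0.62, adjusted p = 0.0697), without the second or the third differentiated one (-0.73 and -0.66, adjusted p = 0.0527 and 0.0647), and with median centring (0.0561). In differentiated cultures Cxcl2 was 2.98-fold higher in spinal cord (adjusted p = 8.57e-05). The neighbouring genes, both with a kappaB match in their promoters, were called in the same direction in brain and in opposite directions in spinal cord.

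Cxcl12, which guides neural precursors and stem cells, showed the largest responses of the set to spinal cord differentiation. Probe set 1388583_at read 7.20, 6.85 and 7.20 in proliferative brain, 8.60, 8.39 and 8.64 in differentiated brain, 6.31, 6.98 and 6.87 in proliferative spinal cord and 13.37, 13.22 and 13.20 in differentiated spinal cord. Probe set 1369633_at read 8.09, 7.64 and 7.40, then 8.78, 8.98 and 9.03, then 6.52, 8.23 and 8.17, then 13.57, 13.42 and 13.19 in the same order of groups. Probe set 1387655_at read 5.47, 4.44 and 4.42, then 6.35, 6.56 and 6.71, then 5.30, 5.04 and 5.54, then 12.09, 11.91 and 11.92, and was dim in both proliferative groups. In each probe set differentiated spinal cord was highest and differentiated brain next, without overlap, and the proliferative groups overlapped.

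In spinal cord Cxcl12 rose 93.2-fold on 1388583_at (log2 change 6.54, SE 0.17, adjusted p = 3.01e-11), 54.0-fold on 1369633_at and at least 49.1-fold on 1387655_at. In brain the same probe sets rose 2.76-fold (adjusted p = 1.29e-05), 2.33-fold (0.0105) and at least 1.35-fold. Differentiated spinal cord exceeded differentiated brain by 26.3-fold, 22.0-fold and 43.2-fold. The proliferative tissues differed by -0.36 (adjusted p = 0.115) and -0.07 (0.896) on the first of these probe sets, and no size is given for the third because both groups were dim. For 1369633_at the difference turned to 0.49 without the first proliferative spinal cord array (adjusted p = 0.0387) and to 0.12 without the first proliferative brain array. For 1388583_at it passed with median centring (-0.57, adjusted p = 0.027) and with quantile normalization (-0.58, 0.0278). The 3 probe sets correlated at r = 0.982 to 0.989 over the 12 arrays, which share the same 4 groups. The fibroblast, meningeal and mural sums given above were highest in differentiated spinal cord, without overlap. Of 13 tested markers of that list, spinal cord differentiation called 9 higher and 0 lower (18.3% and 22.0% of all tested). Brain differentiation called 3 and 2 (23.7% and 23.1%). Spinal cord against brain gave 10 and 0 in proliferative cultures (19.4% and 18.5%) and 10 and 1 in differentiated ones (18.5% and 22.9%). The part of these markers was not tested.

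Cxcl13, the B cell attractant, was dim in brain and bright in spinal cord. It read 4.54, 4.34 and 3.16 in proliferative brain and 6.06, 5.67 and 6.20 in differentiated brain, all dim. In spinal cord it read 9.26, 13.05 and 11.93 in proliferative cultures and 10.22, 10.44 and 10.18 in differentiated ones. The proliferative spinal cord arrays spread over more than the differentiated ones (SD 1.95 against 0.14), and both states overlapped. Cxcl13 was at least 39.6-fold higher in spinal cord than in brain in proliferative cultures and at least 15.8-fold in differentiated ones (adjusted p = 1.91e-06 and 0.000167). The bound in proliferative cultures was at least 83.6-fold without the first proliferative spinal cord array and at least 22.5-fold without the second. Spinal cord differentiation gave -1.13 (SE 0.68, adjusted p = 0.205), and without the first proliferative array it gave -2.21 (adjusted p = 0.000454). Brain differentiation passed the test with 1.96 (adjusted p = 0.0287), but both groups were dim, and with 64 added to each signal the change was 0.65 (0.389). That call was also lost without the third proliferative or the first or the third differentiated brain array (adjusted p = 0.111, 0.0699 and 0.0801) and without the variance trend (0.0596).

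Cxcl16, the membrane-bound ligand of Cxcr6, fell in brain and did not pass in spinal cord. It read 10.12, 10.25 and 10.92 in proliferative brain, 9.11, 8.67 and 8.59 in differentiated brain, 10.57, 11.39 and 11.01 in proliferative spinal cord and 11.56, 11.54 and 11.42 in differentiated spinal cord. Differentiated brain was lowest and differentiated spinal cord highest, both without overlap, and the proliferative groups overlapped. The fall in brain was 3.12-fold (log2 change -1.64, SE 0.22, adjusted p = 4.29e-05), and the change in spinal cord was 0.51 (adjusted p = 0.0816), which passed without the second proliferative spinal cord array (0.71, adjusted p = 0.0247) or the third proliferative brain array (0.0387). Cxcl16 was 6.57-fold higher in differentiated spinal cord than in differentiated brain (adjusted p = 3.76e-07). In proliferative cultures the difference of 0.56 (adjusted p = 0.0622) passed without the first spinal cord array (0.77, adjusted p = 0.0104) or the third brain array (0.80, 0.00895).

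Cx3cl1, the other membrane-bound ligand, is known in the nervous system as a neuronal signal to microglia. Its signal was 9.16, 8.98 and 9.56 in proliferative brain, 8.48, 7.52 and 8.46 in differentiated brain, 9.24, 8.76 and 9.17 in proliferative spinal cord and 10.34, 10.46 and 10.74 in differentiated spinal cord. The differentiated groups lay at opposite ends without overlap, and the proliferative groups overlapped between them. Cx3cl1 fell 2.12-fold in brain (log2 change -1.08, SE 0.24, adjusted p = 0.00233) and rose 2.75-fold in spinal cord (log2 change 1.46, adjusted p = 0.000307). It was 5.14-fold higher in differentiated spinal cord than in differentiated brain (adjusted p = 3.32e-06). The summed signal of 10 neuronal markers was 9290 to 15554 in proliferative and 7755 to 8315 in differentiated brain, and 12404 to 13681 in proliferative and 2313 to 2488 in differentiated spinal cord. Of these markers 7 were called lower and 0 higher with spinal cord differentiation (22.0% and 18.3% of all tested), and 6 lower and 1 higher with brain differentiation (23.1% and 23.7%). Their part in the Cx3cl1 values was not tested.

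Ccl2 and Ccl7, the monocyte attractants, are also neighbours in the RefSeq order, with Ccl7 after Ccl2. Ccl2 read 13.93, 13.70 and 14.28 in proliferative brain, 13.004, 12.85 and 12.92 in differentiated brain, 13.30, 13.94 and 13.67 in proliferative spinal cord and 14.16, 13.99 and 13.98 in differentiated spinal cord. Only differentiated brain was apart from the other groups, which overlapped as neighbours in the order. Ccl2 fell 2.06-fold in brain (log2 change -1.04, SE 0.15, adjusted p = 8.6e-05) and was 2.17-fold higher in differentiated spinal cord than in differentiated brain (adjusted p = 4.84e-05). Its rise in spinal cord was small, 1.32-fold (log2 change 0.41, adjusted p = 0.0483). That call was lost on leaving out the first proliferative brain array, any differentiated brain array, the first or the third proliferative spinal cord array or any differentiated spinal cord array, with adjusted p from 0.0577 to 0.191, and also with median centring, quantile normalization (0.18, adjusted p = 0.306), no filter, no variance trend and only both groups in the fit. Without the first proliferative spinal cord array the change was 0.24.

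Ccl7 read 12.38, 12.36 and 13.16 in proliferative brain, 12.09, 11.69 and 11.76 in differentiated brain, 10.31, 12.49 and 11.98 in proliferative spinal cord and 12.59, 12.54 and 12.44 in differentiated spinal cord. The first proliferative spinal cord array was the lowest of the 12 and widened the spread of that group (SD 1.14). None of the comparisons of a pair of groups passed, with -0.79 for brain differentiation (adjusted p = 0.125), 0.93 for spinal cord differentiation (0.0817) and -1.04 for proliferative spinal cord against brain (0.0558). Without that array brain differentiation passed at the same -0.79 (adjusted p = 0.00398), since the spread shared by all groups was smaller. Without the second proliferative spinal cord array, spinal cord differentiation gave 1.38 (0.0104) and the tissue difference -1.49 (0.00814), and without the first they gave 0.28 (0.325) and -0.39 (0.165).

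Ccl3, a macrophage chemokine, differed by tissue more than by state. It read 7.45, 7.72 and 8.21 in proliferative brain, 8.59, 8.24 and 8.41 in differentiated brain, 10.29, 9.39 and 9.50 in proliferative spinal cord and 10.20, 10.16 and 9.91 in differentiated spinal cord. Each spinal cord array was above each brain array, and the spinal cord states overlapped. Ccl3 was 3.82-fold higher in proliferative and 3.20-fold higher in differentiated spinal cord (adjusted p = 2.37e-05 and 5.53e-05). The microglial and macrophage sums given above were higher on all spinal cord than on all brain arrays. The first proliferative spinal cord array had the highest sum and the highest Ccl3 value. Of the 14 tested markers of that list, 14 were called higher and 0 lower in proliferative spinal cord against brain (19.4% and 18.5% of all tested). In differentiated cultures 9 were higher and 0 lower (18.5% and 22.9%). Brain differentiation called 8 higher and 1 lower (23.7% and 23.1%), and spinal cord differentiation 1 higher and 6 lower (18.3% and 22.0%). The part of these markers in the Ccl3 values was not tested. The rise in brain was 1.54-fold (log2 change 0.62, adjusted p = 0.042) and was lost without any differentiated brain array, the first or the second proliferative brain array or the first or the second differentiated spinal cord array, with adjusted p from 0.0503 to 0.17, and with 64 added to each signal, median centring, quantile normalization, no filter and no variance trend. In spinal cord the change was 0.36 (adjusted p = 0.237), and 0.65 (0.0183) without the first proliferative array.

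Ccl20, the ligand of Ccr6, rose in both tissues. It read 9.76, 9.49 and 10.61 in proliferative brain, 11.73, 11.87 and 11.72 in differentiated brain, 9.99, 13.09 and 12.78 in proliferative spinal cord and 14.13, 13.85 and 13.99 in differentiated spinal cord. Differentiated spinal cord was above all other arrays and proliferative spinal cord overlapped with differentiated brain. The rise was 3.52-fold in brain (log2 change 1.82, SE 0.57, adjusted p = 0.0188) and 4.10-fold in spinal cord (log2 change 2.04, SE 0.57, adjusted p = 0.012). Without the first proliferative spinal cord array the change in spinal cord was 1.06 (adjusted p = 0.0029). In brain the call was lost without the first or the second proliferative array (1.72 and 1.58, adjusted p = 0.0559 and 0.0689) or the second differentiated one (1.77, 0.0514). Spinal cord exceeded brain 4.004-fold in proliferative and 4.66-fold in differentiated cultures (adjusted p = 0.014 and 0.00674). The former difference, 2.001 on the log2 scale, was 2.98 without the first proliferative spinal cord array, and was not called without the second or the third of that group (1.43 and 1.59, adjusted p = 0.0698 and 0.069) or the second proliferative brain array (1.77, 0.0534), nor with only both groups in the fit (0.0638).

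**Figure D3:**
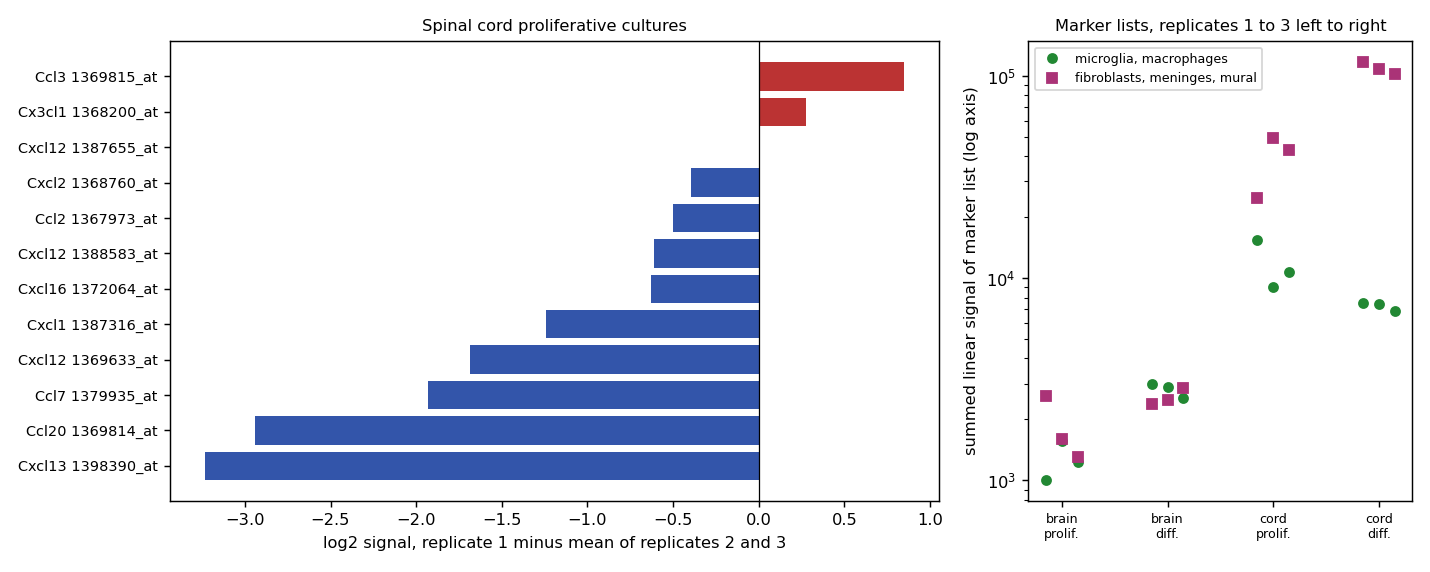
Left, log2 signal of each chemokine probe set on the first proliferative spinal cord array minus the mean of the other arrays of that group; right, summed linear signal (log axis) of the microglial and fibroblast marker lists on every array. Cxcl13 and Ccl20 were 3.23 and 2.94 lower on that array and Ccl3 was 0.85 higher, while its fibroblast sum was 24934 against 42780 and 49107 and its microglial sum 15480 against 9061 and 10681.

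On the first proliferative spinal cord array the probe sets of Cxcl13, Ccl20, Ccl7, Cxcl1 and Cxcl12 (1369633_at) were over 1 log2 unit below the mean of the other arrays of the group, which was so for 4.45% of all tested probe sets. The fibroblast sum was lower and the microglial sum higher on it. The astrocyte sum was also lower, at 23043 against 40811 and 36263. The part of these lists in the chemokine values was not tested. The chemokines had a median SD of 0.45 in proliferative spinal cord and 0.41 in proliferative brain, above the 0.24 and 0.21 of all tested probe sets. In differentiated brain and spinal cord it was 0.16 and 0.12, against 0.15 and 0.16.

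The differentiation response was then compared between the tissues as the spinal cord change minus the brain change. It was called for 10 of 12 probe sets (40.5% of all tested), higher for 9 (18.8%) and lower for 1 (21.7%), with a median of 2.11 against -0.04 over all tested, and it shares its arrays with the comparisons above. Over all tested probe sets, median centring moved the split from 3916 higher and 4518 lower to 5349 and 3373, while the chemokines stayed at 9 and 1. Cxcl1 and Cx3cl1 were called lower with differentiation in brain and higher in spinal cord, and their responses differed by 2.59 (SE 0.37, adjusted p = 9.91e-05) and 2.54 (SE 0.34, adjusted p = 5.76e-05). Cxcl2 fell in both tissues, by more in brain, with a difference of 2.07. Cxcl16 and Ccl2 differed by 2.16 and 1.45. For Cxcl12 the difference was 5.08 on 1388583_at and 4.53 on 1369633_at, and the 4.92 of 1387655_at rests on proliferative groups that were both dim. Ccl7 passed for this comparison, with 1.71 (adjusted p = 0.0265), and gave 1.07 (0.0085) without the first proliferative spinal cord array. It was lost without the third proliferative brain array, the second or the third differentiated brain array or the first differentiated spinal cord array, with adjusted p from 0.0532 to 0.0674, and without the variance trend (0.0601). The -3.10 of Cxcl13 (adjusted p = 0.0191) has both brain groups dim and so no size; it was also called with each array left out, and was not called with 64 added to each signal (adjusted p = 0.1). For Ccl3 and Ccl20 the difference was -0.26 (95% interval -0.96 to 0.45) and 0.22 (-1.53 to 1.97), and neither passed. Without the first proliferative spinal cord array they were 0.026 and -0.76.

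**Figure D4:**
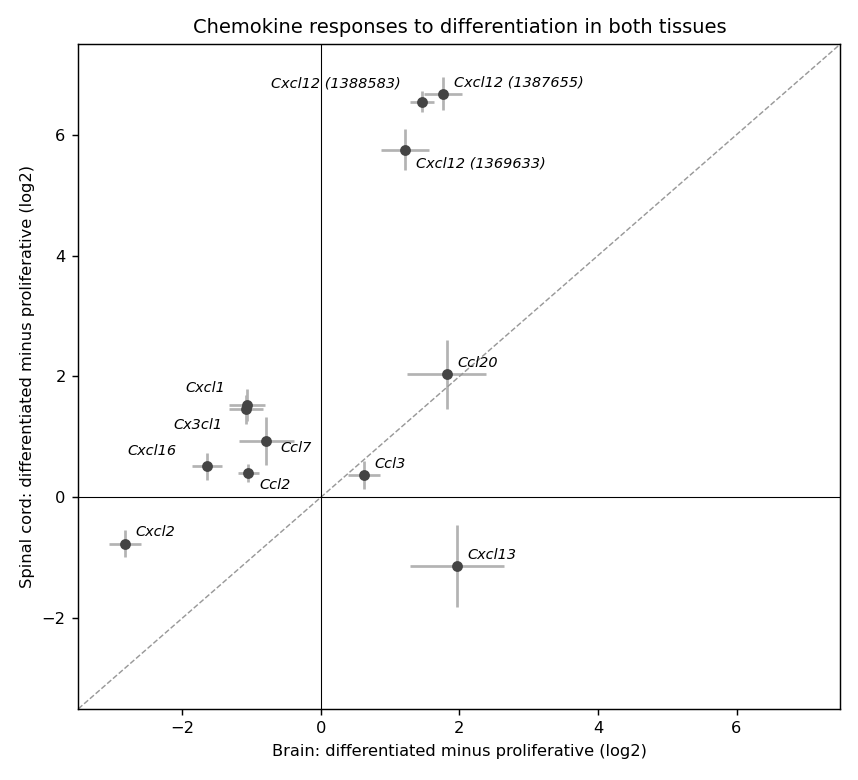
Log2 change with differentiation in brain (horizontal) and in spinal cord (vertical) for each chemokine probe set, with bars of 1 SE from the fit and a dashed line of equal change. Cxcl1 and Cx3cl1 lie in the upper left, called lower in brain and higher in spinal cord, and Cxcl12 lies at 5.75 and 6.54 in spinal cord against 1.22 and 1.46 in brain on 1369633_at and 1388583_at. The third Cxcl12 point, 1387655_at, and that of Cxcl13 rest on dim groups and show no firm size.

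Among 23 listed chemokine receptors, 17 were measured, 10 of them were dim in all groups and 7 were tested. Cxcr2, Ccr2, Ccr6 and Cx3cr1, the receptors of Cxcl1 and Cxcl2, of Ccl2 and Ccl7, of Ccl20 and of Cx3cl1, were dim in every group, with values on the 12 arrays of 0.84 to 5.28, -0.19 to 4.16, 0.78 to 5.19 and 4.87 to 5.93. Over the tested receptors, 1 was called higher and 0 lower in brain differentiation, 1 and 2 in spinal cord differentiation, 4 and 0 in proliferative spinal cord against brain, 3 and 1 in differentiated spinal cord against brain and 1 and 1 for the difference of responses. The shares called over all tested probe sets, higher and lower, were 23.7% and 23.1%, 18.3% and 22.0%, 19.4% and 18.5%, 18.5% and 22.9%, and 18.8% and 21.7% in the same order. The receptors' median changes were 0.46, -0.07, 1.51, 0.37 and -0.85. Among the calls, Ackr1 between the proliferative tissues and Ccr1 between the differentiated ones had both groups dim. Ccr1 was tested only because of its proliferative spinal cord arrays.

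The receptors of Cxcl12 were measured above the floor in every group and moved apart. Ackr3, which removes Cxcl12, read 7.89, 8.06 and 7.86 in proliferative brain, 8.12, 8.05 and 7.88 in differentiated brain, 9.44, 9.54 and 9.35 in proliferative spinal cord and 10.66, 10.29 and 10.57 in differentiated spinal cord. The brain states overlapped, and each other step in that order was without overlap. Ackr3 rose 2.10-fold with spinal cord differentiation (adjusted p = 2.23e-05), changed by 0.08 in brain (adjusted p = 0.625), and was 5.62-fold higher in differentiated spinal cord than in differentiated brain (adjusted p = 5.45e-09). Cxcr4, the signalling receptor, had 3 probe sets. On 1389244_x_at, whose suffix marks probes that may also match other transcripts, it read 9.84, 9.52 and 9.28, then 9.81, 9.97 and 9.99, then 8.93, 9.49 and 8.96, then 8.47, 8.82 and 8.69. Differentiated spinal cord was thus lowest, without overlap, and differentiated brain was highest and overlapped with proliferative brain. All 3 Cxcr4 probe sets were lower in differentiated spinal cord than in differentiated brain, by 2.05-fold to 2.40-fold, and all 3 had a lower response in spinal cord (-0.70 to -0.85). With spinal cord differentiation only 1389244_x_at was called (-0.47, adjusted p = 0.0451), and the call was lost in 12 of the alternatives, median centring among them (0.0685). With brain differentiation only 1373661_a_at was called (0.37, adjusted p = 0.0471).

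Ccr1, which binds Ccl3, read 7.08, 9.64 and 9.13 in proliferative spinal cord and was dim in the other groups. Its probe set passed the filter only through the proliferative spinal cord arrays, so the p-values given here add no support. Ccr1 was at least 5.69-fold higher in proliferative spinal cord than in proliferative brain (adjusted p = 0.000299) and fell at least 5.12-fold with spinal cord differentiation (adjusted p = 0.00563). These bounds were 9.70-fold and 8.72-fold without the first proliferative spinal cord array, and 3.99-fold and 3.58-fold without the second. Cxcr5, the receptor of Cxcl13, was dim on 1369911_at, and on 1386557_at its group means were 6.87, 7.60, 7.82 and 7.75, with no comparison called. Ackr4, a scavenging receptor, was dim in both brain groups and read 7.27, 7.75 and 6.96 in proliferative and 7.71, 7.78 and 7.94 in differentiated spinal cord, at least 2.86-fold over differentiated brain (adjusted p = 0.0104).

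**Figure D5:**
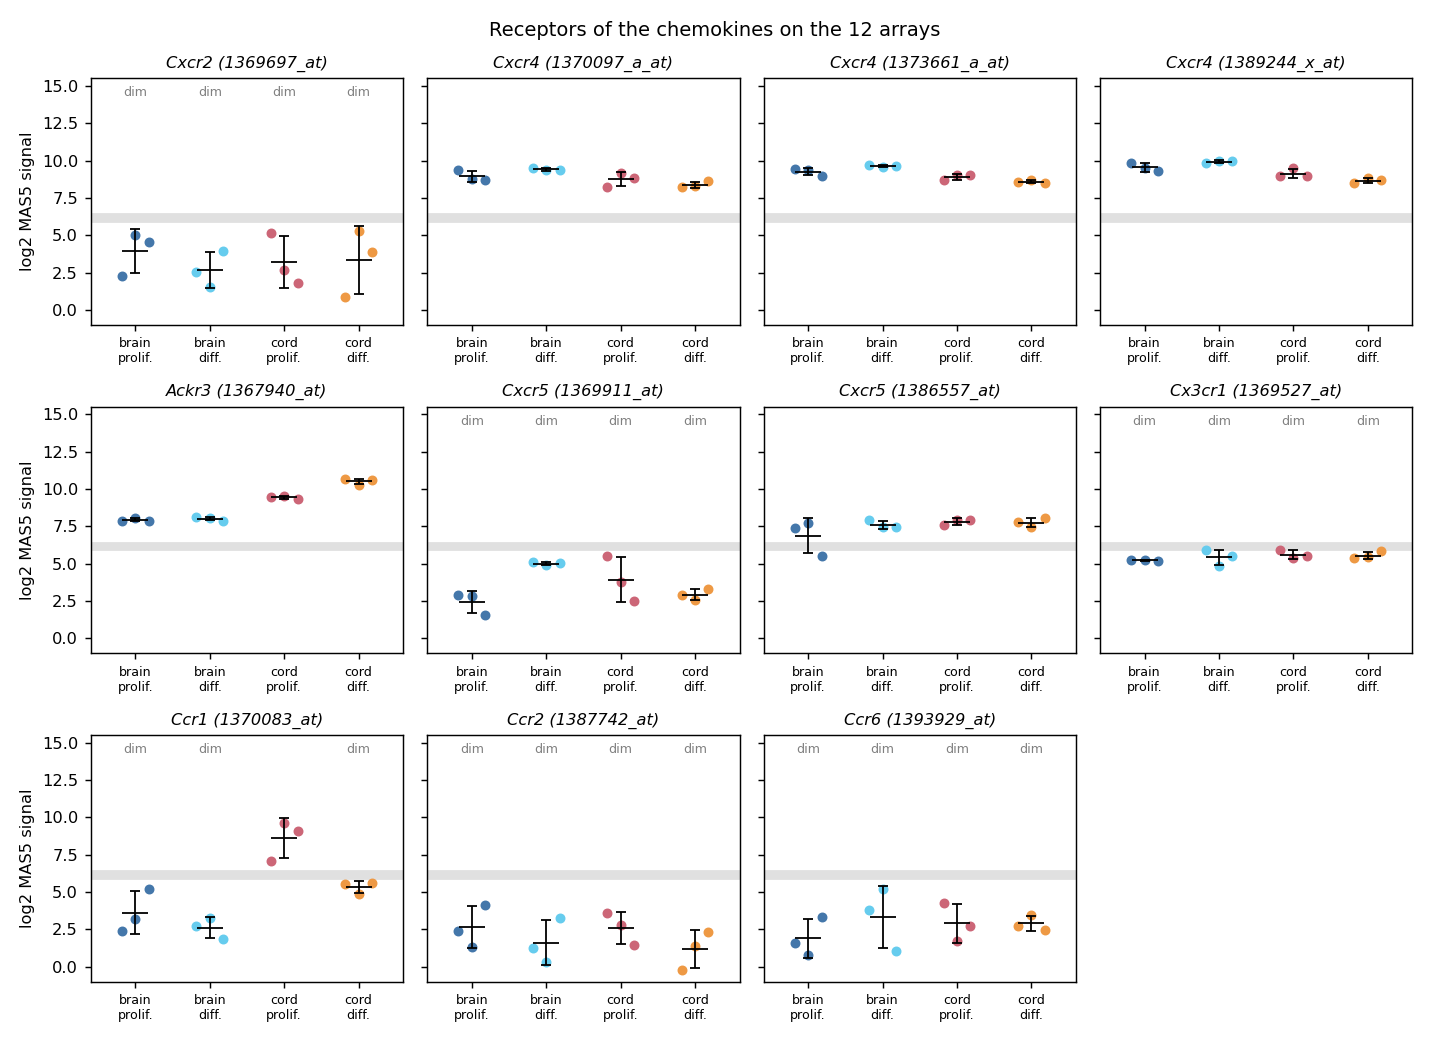
Log2 MAS5 signal of receptors of these chemokines on the 12 arrays (points, replicates 1 to 3 from left to right) with the mean and SD of each group; the grey band spans the arrays' 40th percentiles and dim marks a group whose arrays all lie under their own. Cxcr4 and Ackr3 lie above the band in every group, Ccr1 in proliferative spinal cord only, and Cxcr2, Cx3cr1, Ccr2 and Ccr6 in none.

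Other members of the chemokine family were taken from a list of 26 genes, of which 21 were measured, 8 were dim in all groups and 12 were tested. Brain differentiation called 5 higher and 1 lower (median 0.49; 23.7% and 23.1% of all tested probe sets), and spinal cord differentiation 6 and 1 (0.93; 18.3% and 22.0%). Spinal cord against brain gave 6 and 1 in proliferative cultures (1.03; 19.4% and 18.5%) and 5 and 1 in differentiated ones (1.08; 18.5% and 22.9%). For the difference of responses 2 were called higher and 3 lower (0.01; 18.8% and 21.7%). This list counts 1 probe set per gene. Counted by gene, the 10 chemokines described above had 7 higher and 1 lower, and they were chosen with earlier results of these data known. Cxcl3, a neutrophil attractant of the Cxcl1 and Cxcl2 group, read 8.62, 8.53 and 9.37 in proliferative brain, 6.50, 6.13 and 5.55 in differentiated brain, 8.32, 11.10 and 10.23 in proliferative spinal cord and 12.25, 12.28 and 11.97 in differentiated spinal cord. As with Cxcl1, the differentiated groups lay at opposite ends. On this probe set, 1370633_at, Cxcl3 fell 6.87-fold in brain (adjusted p = 0.000517) and rose 4.85-fold in spinal cord (adjusted p = 0.00272), and it was 68.9-fold higher in differentiated spinal cord than in differentiated brain. On 1370634_x_at and 1388032_a_at that difference was 66.9-fold and 37.5-fold, and on each of these 3 probe sets 2 of the 3 differentiated brain arrays lay under their 40th percentile, so these sizes and the falls in brain are uncertain. The spinal cord change, 2.28, was 1.496 and 2.89 without the first or the second proliferative spinal cord array. Another Cxcl3 probe set, 1388033_at, was dim in all groups but differentiated spinal cord. Cxcl6, another neutrophil attractant, rose 47.9-fold in spinal cord (log2 change 5.58, adjusted p = 1.93e-05) and at least 3.17-fold in brain (adjusted p = 0.00829), and the spinal cord change was 4.43 and 6.36 without the same arrays.

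Cxcl11, an interferon-induced chemokine, rose 4.65-fold in brain and 4.76-fold in spinal cord (adjusted p = 0.00107 and 0.00118). Cxcl9, dim in both proliferative groups, rose at least 1.38-fold in brain and at least 2.71-fold in spinal cord (adjusted p = 2.89e-05 and 0.0164). The latter call was lost without the first proliferative spinal cord array (adjusted p = 0.0644) or the third differentiated one (0.0522). Ccl6, a monocyte-derived chemokine whose gene lies next to Ccl3, fell at least 13.9-fold with spinal cord differentiation (adjusted p = 0.00122). Pf4, a platelet and macrophage product, was higher in spinal cord in both states, by 5.19-fold and 5.13-fold, and its changes with differentiation were 0.03 and 0.01. Cxcl14 was the one chemokine of this list called lower in differentiated spinal cord than in differentiated brain, by 4.56-fold (adjusted p = 7.91e-08).

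The NF-kappaB list held 27 pathway members and targets, 24 measured and 22 tested. With brain differentiation 5 were called higher and 7 lower (median 0.03; 23.7% and 23.1% of all tested), and with spinal cord differentiation 13 and 1 (0.73; 18.3% and 22.0%). Between the tissues 6 were higher in spinal cord and 7 lower in proliferative cultures (-0.11; 19.4% and 18.5%), and 15 and 2 in differentiated ones (0.91; 18.5% and 22.9%). For the difference of responses 10 were called higher and 1 lower (0.71; 18.8% and 21.7%). Nfkb2 and Relb, which form the non-canonical NF-kappaB dimer, had responses higher in spinal cord by 1.92 and 1.73 (adjusted p = 1.29e-05 and 0.000377). Icam1, an adhesion protein for leukocytes, rose 4.63-fold in spinal cord (adjusted p = 2.36e-06) and was 7.95-fold higher in differentiated spinal cord than in differentiated brain. Birc3, an inhibitor of cell death, rose 2.86-fold in spinal cord (adjusted p = 3.03e-05). Ptgs2, which makes prostaglandins, fell with differentiation, at least 6.79-fold in brain and 3.64-fold in spinal cord (adjusted p = 6.64e-06 and 0.00409), and the spinal cord change of -1.86 was -2.49 without the first proliferative array. Between the tissues it was at least 27.8-fold higher in differentiated spinal cord, and its response was called higher in spinal cord (adjusted p = 0.0121), a call lost with 64 added to each signal (0.248).

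Of 12 receptors and adaptors upstream of chemokine transcription 11 were tested. Brain differentiation called 2 higher and 3 lower (median 0.09; 23.7% and 23.1% of all tested), and spinal cord differentiation 5 and 1 (0.66; 18.3% and 22.0%). Spinal cord against brain gave 7 and 1 in proliferative cultures (0.92; 19.4% and 18.5%) and 8 and 0 in differentiated ones (1.03; 18.5% and 22.9%), and the difference of responses 1 and 1 (0.27; 18.8% and 21.7%). Il1rap, the shared chain of the IL-1 receptor, fell in both tissues, 4.83-fold in brain and 7.23-fold in spinal cord (adjusted p = 2.64e-08 and 6.18e-09). Il1r1, the chain that binds IL-1, rose 2.23-fold in spinal cord (adjusted p = 0.00566) and was 6.06-fold higher in differentiated spinal cord than in differentiated brain. Tnfrsf1b and Tlr4, dim in both brain groups, were at least 2.18-fold and 3.11-fold higher in differentiated spinal cord (adjusted p = 3.49e-05 and 0.00205). In proliferative cultures Cd14 and Tlr2 were 4.93-fold and 4.46-fold higher in spinal cord (adjusted p = 4.64e-05 and 3.77e-05). Tnfrsf1a, the main TNF receptor, rose 1.77-fold and 1.85-fold, and the adaptor Myd88 rose 2.003-fold and 2.16-fold, in brain and spinal cord.

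Proteins that process chemokines or carry their signals made a list of 18, with 16 measured and 14 tested. Brain differentiation called 3 higher and 5 lower (median -0.02; 23.7% and 23.1% of all tested), and spinal cord differentiation 5 and 1 (-0.10; 18.3% and 22.0%). Spinal cord against brain gave 5 and 1 in proliferative cultures (0.23; 19.4% and 18.5%) and 7 and 2 in differentiated ones (0.58; 18.5% and 22.9%), and the difference of responses 4 and 1 (-0.19; 18.8% and 21.7%). Sdc1, a proteoglycan that binds chemokines at the cell surface, fell 6.09-fold in brain (adjusted p = 1.07e-07) and was 13.4-fold higher in differentiated spinal cord (adjusted p = 2.68e-09). Mmp9, a protease that trims chemokines, fell at least 1.85-fold in brain (adjusted p = 0.000126) and was at least 11.04-fold higher in differentiated spinal cord. Adam17, which sheds Cx3cl1 and Cxcl16, had a response 0.82 higher in spinal cord (adjusted p = 0.00365).

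For each chemokine the genes most alike in pattern were taken by Pearson correlation over the 12 arrays, which share 4 groups, as a description with no test. Closest to Ccl20 was Igfbp7 (r = 0.997), followed by Pld3 and Dkk3 (0.981 and 0.976). Cxcl12 on 1369633_at was most like Insig2 (0.986), Ggact and Mme, and Cxcl2 was most like Adamts1 (0.985), Xbp1 and Tagln2. Cxcl13 was nearest to Igsf3 (0.981), Tacr1 and Slc24a2, and Cxcl16 to Sdc1 (0.981), Mgst2 and Tpm2. Ccl2 paired with P3h4 (0.980), Ccl3 with Lcp1 (0.972), Cxcl1 with P4ha3 (0.968) and Cx3cl1 with Igf2bp1 (0.967). Ccl7 had the lowest best match, Rilpl1 (0.911). Between different chemokine genes the highest r was that of Cxcl16 and Ccl2 (0.88) and the lowest that of Cxcl2 and Cxcl12 (-0.28 on 1388583_at).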

How the data were processed

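Values of 12 arrays were taken as deposited: log2 signals per probe set, summarised with MAS5 through affy per the submitters' processing notes, which give no version. Their log2 scale and scaling were worked out from the values: the linear mean of each array, 2% trimmed at both ends, was 500, and genes were not centred. Probe sets were named from the platform annotation (1 symbol for 20826, several for 436, none for 9780), and 20758 matched a current RefSeq gene by Entrez ID. Of 31099 probe sets 57 controls were left out, and the filter kept 20834. All comparisons came from limma 3.58.1 in R 4.3.3 (lmFit with 4 group means and 8 residual degrees of freedom, then eBayes with the trend option), with Benjamini-Hochberg adjustment over all tested probe sets and a threshold of 0.05; the number of arrays limits the precision. The scripts were tested on simulated data, and figures were drawn in Python 3.11.15.

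All probe sets of the 10 genes are named. Other genes come from fixed lists, by the probe set with the highest mean: called genes with the largest change, at most 4 per list and comparison, and the genes with the highest correlation to each chemokine. Not all of the genes so taken are named in the text. The genes, lists and floor for dim groups were chosen with earlier results of these data known. Alternatives were a pseudocount of 64, median centring, quantile normalization, no filter or a stricter one (60th percentile), no variance trend, only the groups compared, each array left out and the replicate number as a block. The main fit did not pair samples by replicate number, and same-numbered arrays did not deviate together. Scanner files and detection calls were not used here.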

Additional observations from a re-analysis of the deposited data

Results flagged for a closer look

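For these probe sets the differentiation response differed between the tissues by the test of that difference (spinal cord minus brain, limma, adjusted p under 0.05). On the log2 scale it was 2.59 for Cxcl1, 2.07 for Cxcl2, 2.16 for Cxcl16, 2.54 for Cx3cl1, 1.45 for Ccl2 and 1.71 for Ccl7. For Cxcl12 it was 4.92 on 1387655_at, 4.53 on 1369633_at and 5.08 on 1388583_at. For Cxcl13 it was -3.10, from brain groups that were dim.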

How the results depend on the processing

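Over all alternatives, 1107 of 1188 values of single chemokine probe sets kept their direction and side of the threshold, 53 calls were lost, 23 were gained and 5 values changed sign. In many alternatives the direction could not change. Another filter, no variance trend, only the groups compared and the replicate block leave the log2 change as it was. So does leaving out an array of a group that is not compared. The sign changed only among the values that leave out 1 array, which ran from -0.37 to 0.49 for Cxcl12 (1369633_at), proliferative spinal cord against brain, from -0.47 to 0.026 for the difference of responses of Ccl3 and from -0.76 to 0.79 for that of Ccl20. Of 1800 values of the named genes of the lists, 75 calls were lost and 1 changed sign, the difference of responses of Cxcl9, 0.057 with a pseudocount of 64. The cause of these changes was not tested.

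Of the counts of called chemokine probe sets, that of spinal cord differentiation lower, 1, became 0 with median centring. Proliferative spinal cord against brain lower, 1, became 2 with a pseudocount of 64, with quantile normalization and with the stricter filter, 5 with median centring, and 0 without the variance trend and with only the groups compared. Difference of responses lower, 1, became 0 with a pseudocount of 64. Median centring moved the median of all tested probe sets from 0.00 to -0.15 for brain differentiation, from -0.02 to -0.22 for proliferative spinal cord against brain and from -0.04 to 0.19 for the difference of responses. Leaving out each array gave 4 to 6 higher and 5 to 6 lower in brain differentiation, 6 to 9 and 0 to 2 in spinal cord differentiation, 2 to 5 and 0 to 3 in proliferative spinal cord against brain, 11 to 12 and 0 to 0 in differentiated spinal cord against brain, and 8 to 9 and 1 to 1 in the difference of responses.

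Same-numbered arrays did not deviate together: over 18 pairs r was -0.12 to 0.05, with 0 over 0.1. With the replicate block, 5 probe sets were called higher and 5 lower in brain differentiation and 6 and 1 in spinal cord differentiation, as the adjusted p of Ccl3 in brain became 0.0516 and that of Ccl2 in spinal cord 0.067, and it changed no other chemokine call. Dim probe sets, such as Cxcl13 in brain, limit what can be read from the lowest signals.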
